A study of Mus musculus with 18 samples.

Results

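The genes described here encode the MHC class II presentation machinery of the mouse: the chains H2-Aa, H2-Ab1 and H2-Eb1, the chaperone Cd74, the peptide editor subunits H2-DMa and H2-DMb1, the editor's inhibitor subunits H2-Oa and H2-Ob, and the transcriptional coactivator Ciita. They were chosen by symbol in the platform annotation, which gave 10 probe sets for the 9 genes among 12422 probe sets, with 2 probe sets for H2-DMa and 1 for each other gene. The series measured total RNA of mouse heart on Affymetrix U74Av2 oligonucleotide arrays, 1 array per sample, in mice with a cardiac-specific transgene for tumour necrosis factor alpha (TNFTG) and in FVB mice without it.

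The groups were TNFTG females and males of 3 weeks (3 arrays each), TNFTG males of 13 weeks and TNFTG females of 40 weeks (3 arrays each), and FVB females (2 distinct arrays) and FVB males (3 arrays) of 3 weeks. FVB female columns 1 and 2 held identical values and were counted as 1 sample, so 17 distinct arrays were used. The labels name neither the promoter that drives the transgene nor the number of animals behind a sample, so the p-values rest on how far these samples scatter, and that scatter may be technical. No FVB array of 13 or 40 weeks was analysed here. The later ages therefore have only younger TNFTG hearts for comparison, and each later age is of 1 sex.

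Class II molecules are pairs of an alpha and a beta chain that display peptides from the endosome to CD4 T cells. They are made mainly by dendritic cells, macrophages and B cells, and other cells can be made to express them by interferon gamma. Cd74, the invariant chain, fills the groove of new class II dimers and guides them to endosomes, where H2-DM exchanges its remnant for peptides and H2-O restrains H2-DM. Ciita binds no DNA itself but is recruited by RFX, CREB and NF-Y proteins to a shared promoter module, an X box followed by a Y box, and is required for strong class II transcription. In the heart, class II is known mainly from resident and infiltrating macrophages and dendritic cells.

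The promoters of several members carry this X-Y arrangement, and the stretches that hold it are shown because the genes downstream of them were higher in TNFTG hearts, as given below. Sequences were taken from RefSeq promoter windows of build GRCm38.p6, which is the C57BL/6J genome and not that of FVB. Each window runs from 250 bases before to 50 bases after the gene's start. Windows were found for 6 of the 9 genes: H2-Aa, H2-Eb1, H2-DMa, H2-DMb1, H2-Oa and H2-Ob. Capitals mark the letters GNAAC, from the X box, and GATTGG, the Y box core, 15 to 40 bases further on. Both are read 5′ to 3′ on the gene's strand, and the motifs were chosen after these sequences were seen.
H2-Aa, chr17:34287855-34287916, minus strand: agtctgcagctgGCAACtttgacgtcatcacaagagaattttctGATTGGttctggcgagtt
H2-Eb1, chr17:34305764-34305824, plus strand: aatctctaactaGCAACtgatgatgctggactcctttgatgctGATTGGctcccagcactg
H2-DMb1, chr17:34153085-34153146, plus strand: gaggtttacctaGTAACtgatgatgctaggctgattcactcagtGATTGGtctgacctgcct
H2-Oa, chr17:34092291-34092352, plus strand: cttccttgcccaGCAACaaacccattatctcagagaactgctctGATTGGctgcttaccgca
H2-Ob, chr17:34238806-34238864, plus strand: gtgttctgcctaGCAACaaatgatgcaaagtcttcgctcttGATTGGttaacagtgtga

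The gap between both motifs was 27 bases in H2-Aa, H2-DMb1 and H2-Oa, 26 in H2-Eb1 and 24 in H2-Ob. The Y box core began 44 to 62 bases before the annotated start. Neither of the 2 H2-DMa windows held the combination, although 1 of them held GATTGG. Over 32851 windows of 300 bases, 0.721% held the combination on the gene's strand and 1.45% on either strand, and 16.1% held GATTGG on either strand. These matches describe letters only and say nothing of binding in these hearts.

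All 9 genes had higher signal in TNFTG than in FVB hearts at 3 weeks, by 1.6-fold for Ciita to 46.7-fold for H2-Ab1. The order of size followed no single role: the classical chains H2-Ab1 and H2-Aa led, then came Cd74 and H2-DMb1, then H2-DMa and H2-Eb1, with H2-Oa, H2-Ob and Ciita last. Limma called 9 of 9 higher at a Benjamini-Hochberg adjusted p of 0.05 over 7453 tested probe sets, of which 46.6% were called in either direction, 24.7% as higher and 21.9% as lower. The median log2 difference of the 9 was 2.51, beside -0.0065 over all tested probe sets. The arrays of the groups did not overlap for 8 of the 9 genes, as was so, with TNFTG higher, for 14.5% of tested probe sets. All 10 probe sets passed the filter on low values, which uses the mean over all 17 arrays, 12 of them TNFTG, and so favours genes that are high there.

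**Figure D1:**
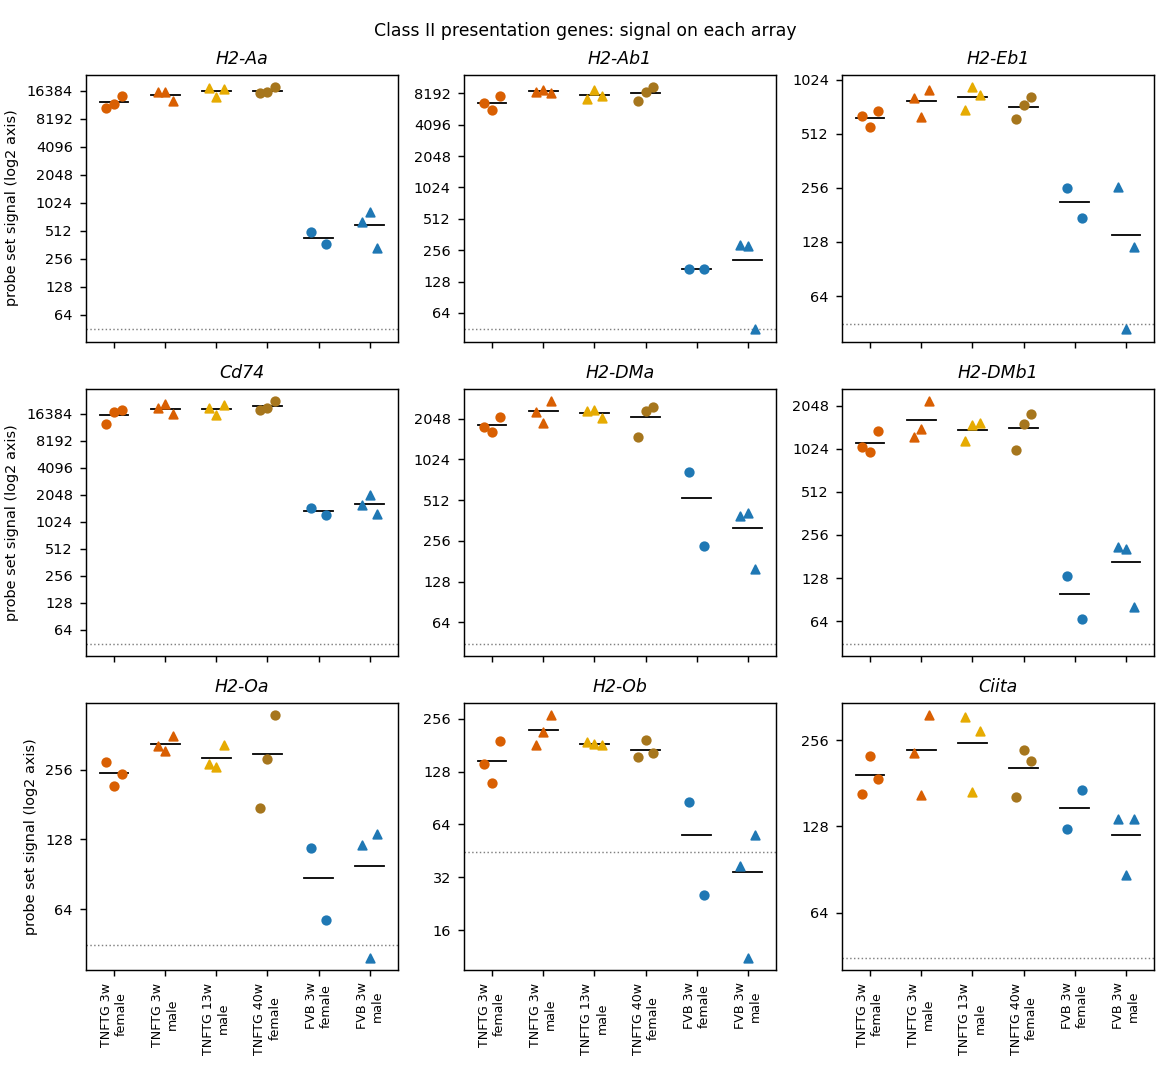
Probe set signal (log2 axis) of the 9 genes on each of the 17 arrays, with circles for females, triangles for males, horizontal bars for group means and a dotted line at 44.675, below which values have no order. The 12 TNFTG arrays lie above the 5 FVB arrays for every gene except Ciita, where the lowest TNFTG value, 162.6, is below the highest FVB value, 172.2.

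The facts of the arrays that touch these results are few. The array deposited as FVB females 1 and 2 stood apart. Its Spearman correlations with the other 16 arrays were 0.775 to 0.856, against 0.956 to 0.964 among the other 4 FVB arrays. On this array 7.33% of probe sets lay at the floor set for low values, against 23.7% to 28.3% on the others. The 5th percentile of its signal was 37.9, against 4.1 to 8.9 on the others, so its lowest signals were higher than theirs. The part of this in its low values for single genes, here and below, was not tested. FVB male 2 had high Xist (2705.7) with low Eif2s3y (67.4), and FVB male 1 had both (1380.6 and 298.7), which goes against their labels. The outlying FVB female array had Xist at 2075.4 but also Eif2s3y at 115.3, above FVB male 2. FVB female 3 had Eif2s3y at 40.9, and the TNFTG females of 3 weeks had 7.6 to 30.8. The Actb control probe sets at the 3' end gave more signal than those at the 5' end, a measure of RNA degradation, by a factor of 1.12 to 1.44 on the TNFTG arrays of 3 weeks and 1.29 to 1.97 on the FVB arrays. That factor was 1.23 to 1.48 on the TNFTG arrays of 13 weeks and 1.39 to 1.77 on those of 40 weeks. The part of RNA degradation in the results was not tested.

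Among the chains, H2-Aa, which encodes the alpha chain of the I-A molecule, had signals of 10778.3, 11878.2 and 14366.6 in TNFTG females and 16111.6, 16107.6 and 12802.0 in TNFTG males of 3 weeks. FVB females had 492.9 and 374.1, and FVB males had 638.4, 817.0 and 334.8. Every TNFTG array was far above every FVB array. On the log2 scale the difference was 4.79 (SE 0.20, limma adjusted p = 3.4e-11), or 27.6-fold.

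H2-Ab1, the beta chain that pairs with H2-Aa, had 6632.4, 5617.5 and 7783.3 in TNFTG females and 8524.3, 8825.8 and 8282.7 in TNFTG males, against 170.3 and 167.2 in FVB females and 290.0, 280.0 and 44.4 in FVB males. FVB male 3 lay just below the floor of 44.675, the signal under which all values were treated as equal. The TNFTG arrays were close to each other and the FVB arrays were not. On the log2 scale the difference was 5.55 (SE 0.36, limma adjusted p = 5.35e-09), with 1 FVB array at the floor.

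H2-Eb1, the beta chain of the I-E molecule, had 641.5, 555.1 and 687.4 in TNFTG females and 805.1, 633.4 and 901.3 in TNFTG males, against 255.0 and 174.8 in FVB females and 257.3, 41.7 and 120.7 in FVB males. The groups did not overlap. FVB male 2 lay at the floor, and the log2 difference was 2.18 (limma adjusted p = 3.8e-05, SE 0.31). Its 95% interval, 1.52 to 2.84, lay wholly below those of H2-Aa (4.37 to 5.20) and H2-Ab1 (4.79 to 6.30). FVB/N mice carry the q haplotype of H2, in which I-E is not displayed on the cell surface. Any bearing of this on the H2-Eb1 signal was not tested.

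The I-E alpha chain gene H2-Ea, which is not among the 9, rose with H2-Eb1. Its signal was 158.4 to 516.2 on the 6 TNFTG arrays of 3 weeks (median 291), while 4 of 5 FVB arrays were below the floor and the outlying FVB female array had 218.4. It differed by 2.11 on the log2 scale (SE 0.31, limma adjusted p = 4.93e-05). H2-Eb2, a further class II beta gene, lay at the floor on all 12 TNFTG arrays and on 3 of the 5 FVB arrays, and did not pass the filter.

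Cd74 had the highest signal of the 10 probe sets on all 17 arrays, although signals of different probe sets do not measure relative transcript amounts. It had 12675.8, 17192.5 and 17844.7 in TNFTG females and 18809.3, 20700.2 and 16090.2 in TNFTG males, against 1450.3 and 1210.8 in FVB females and 1550.5, 2010.2 and 1242.2 in FVB males. It was the only member besides H2-Aa, H2-DMa, H2-DMb1 and Ciita with no FVB array at the floor. On the log2 scale the difference was 3.56 (SE 0.16, limma adjusted p = 5.06e-11), or 11.8-fold, with the smallest SE of the 9 genes.

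The editor subunits rose too. H2-DMb1 had 1058.1, 967.6 and 1355.5 in TNFTG females and 1231.2, 1396.7 and 2214.6 in TNFTG males, against 131.5 and 66.6 in FVB females and 212.0, 204.3 and 80.2 in FVB males. Its log2 difference was 3.47 (SE 0.27, limma adjusted p = 5.03e-08). H2-DMb1 and H2-DMb2 are near-identical neighbours whose transcripts such probe sets may not separate. The H2-DMb2 probe set differed by 1.65 (SE 0.40, limma adjusted p = 0.00332), and a probe set annotated to both genes by 2.97 (SE 0.30, limma adjusted p = 8.51e-07).

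H2-DMa, the partner of H2-DMb1, had 1778.8, 1634.3 and 2100.8 in TNFTG females and 2307.2, 1913.1 and 2778.3 in TNFTG males, against 831.1 and 236.3 in FVB females and 392.8, 410.0 and 157.6 in FVB males. The highest FVB value was that of the outlying female array. On the log2 scale the difference was 2.51 (SE 0.30, limma adjusted p = 5.9e-06). The second H2-DMa probe set, of lower signal, had 63.4 to 396.4 on the TNFTG arrays and 41.4 to 307 on the FVB arrays of 3 weeks, with the outlying array again highest in FVB. It differed by 1.33 (SE 0.47, limma adjusted p = 0.0307).

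H2-O, which in textbook accounts is made mainly by B cells and some dendritic cells, had low signals throughout. H2-Oa had 276.6, 217.8 and 246.7 in TNFTG females and 325.4, 307.5 and 359.7 in TNFTG males, against 117.3 and 57.2 in FVB females and 120.7, 39.5 and 135.5 in FVB males. Its log2 difference was 1.73 (SE 0.29, limma adjusted p = 0.000168), with 1 FVB array at the floor. H2-Ob had 141.1, 110.5 and 190.6 in TNFTG females and 181.5, 214.0 and 268.8 in TNFTG males, against 85.9 and 25.5 in FVB females and 37.0, 11.2 and 55.5 in FVB males. With 3 FVB arrays at the floor, its log2 difference was 1.70 (SE 0.18, limma adjusted p = 2.12e-06). Setting these 3 values to the floor removes the scatter between them, so the SE of H2-Ob may be too small.

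Ciita changed least. Its signal was 165.5, 225.9 and 187.7 in TNFTG females and 230.9, 165.4 and 313.6 in TNFTG males, against 125.6 and 172.2 in FVB females and 136.3, 86.5 and 135.6 in FVB males. The groups overlapped, since FVB female 3 was above 2 of the 6 TNFTG arrays. On the log2 scale the difference was 0.67 (SE 0.21, limma adjusted p = 0.0166), a 1.6-fold change, and its upper 95% bound of 1.13 was below the lower bounds of H2-Aa, H2-Ab1, Cd74, H2-DMa, H2-DMb1, H2-Eb1 and H2-Ob. The bound of H2-Ob rests on FVB values set to the floor. The call was lost without the outlying FVB female array (0.56, limma adjusted p = 0.0762) and without that array and FVB males 1 and 2 (0.45, limma adjusted p = 0.216). Leaving out those 3 arrays leaves 1 FVB array of each sex. The other 8 genes then had log2 differences of 6.44 for H2-Ab1, 5.26 for H2-Aa, 4.17 for H2-DMb1 and 3.80 for Cd74. H2-DMa had 3.41, H2-Eb1 2.26, H2-Ob 1.83 and H2-Oa 1.69.

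Within each sex, the comparison of TNFTG with FVB hearts gave 8 of 9 genes higher in females (34.7% of all tested probe sets were called, 19.4% as higher) and 9 of 9 in males (29.7%, and 16.9% as higher). Over all probe sets, 1446 of 2587 calls in females and 1257 of 2211 in males were higher, and with arrays set to a common median 1700 of 2469 and 930 of 2303 were. FVB males 1 and 2, whose Xist goes against their labels, enter the male values and every sex difference here. In males, Ciita was not called without FVB male 2 (0.75, limma adjusted p = 0.0843) or without FVB males 1 and 2 and the outlying female array (0.75, limma adjusted p = 0.185). The gene not called in females was Ciita (0.38, SE 0.32, limma adjusted p = 0.37). H2-Aa and Cd74 had nearly the same difference in both, 4.83 in females and 4.74 in males for H2-Aa, and 3.57 and 3.55 in the same order for Cd74. H2-Eb1 had 1.57 (SE 0.46) in females and 2.79 (SE 0.42) in males. H2-Ob had 1.21 (SE 0.28) in females and 2.19 (SE 0.25) in males, with 1 of 2 and 2 of 3 FVB arrays at the floor. H2-DMa had 2.04 (SE 0.45) in females and 2.97 (SE 0.40) in males on the probe set counted. Its second probe set had 0.06 (SE 0.71, limma adjusted p = 0.959) in females and 2.61 (SE 0.63, limma adjusted p = 0.00503) in males. The female count rests on few FVB arrays: it was 5 without FVB female 3, where H2-Eb1, H2-Oa and H2-Ob were not called, at limma adjusted p = 0.0911, 0.106 and 0.0502.

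The female minus male difference of the effect was tested itself and called for 0 of 9 genes, and for 0 of all 7453 probe sets (0%). At an unadjusted p under 0.05 limma gave 1 of the 9, H2-Ob, and 1228 of all. H2-Ob stood at -0.97 (95% interval -1.75 to -0.19, limma adjusted p = 0.229) and H2-Eb1 at -1.22 (-2.55 to 0.10, limma adjusted p = 0.341). For H2-Aa and Cd74 the intervals were -0.73 to 0.93 and -0.65 to 0.68. Leaving out FVB female 3 makes the outlying array the sole FVB female. The difference then stood at -1.84 for H2-DMa and -1.44 for H2-Ob.

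In TNFTG hearts of 3 weeks, female minus male differences were below 0 for all 9 genes, from -0.23 for Cd74 to -0.60 for H2-Ob, with a median of -0.34 beside -0.040 over all tested probe sets. None was called, while 0.0805% of all probe sets were, 0.0403% as higher and 0.0403% as lower, and at an unadjusted p under 0.05 limma gave 1, H2-Ob (adjusted p = 0.609). The female and male arrays did not overlap for 2 genes, H2-Ab1 and H2-Oa, as was so with females lower for 7.72% of tested probe sets.

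**Figure D2:**
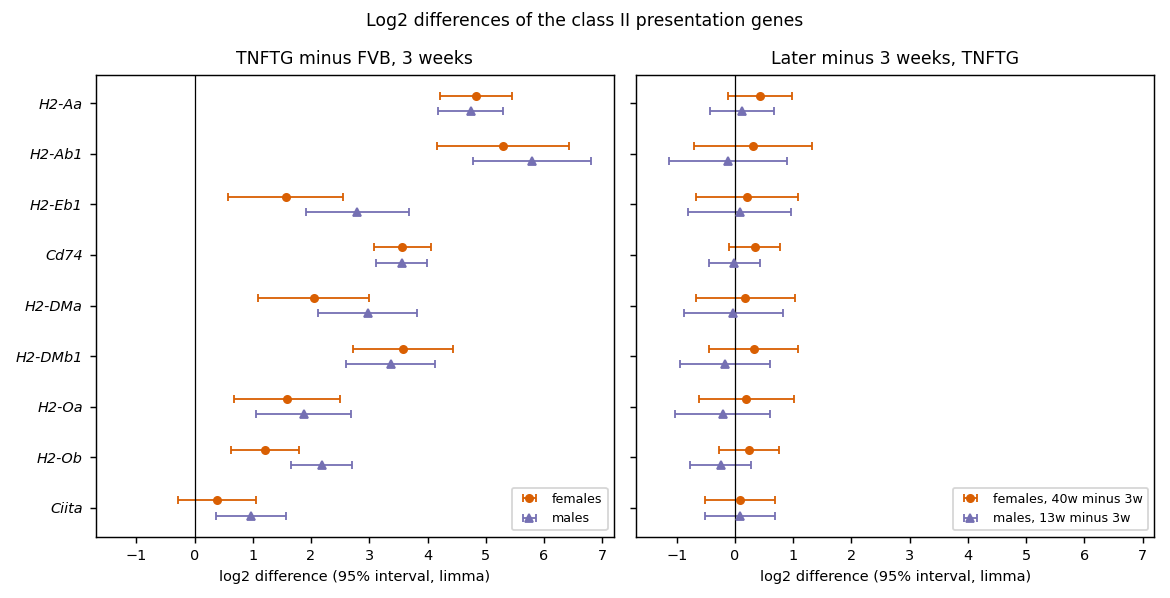
Log2 differences with 95% intervals from limma, for TNFTG minus FVB hearts of 3 weeks (left) and for later minus 3 week TNFTG hearts (right), with females as circles and males as triangles. On the left 17 of the 18 intervals lie above 0, and the interval of Ciita in females includes it, while on the right all 18 intervals include 0.

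No class II gene was called as changed after 3 weeks. In TNFTG males, 13 minus 3 weeks, the 9 log2 differences ran from -0.25 for H2-Ob to 0.12 for H2-Aa, and none was called (0.523% of all probe sets were). In TNFTG females, 40 minus 3 weeks, they ran from 0.08 for Ciita to 0.43 for H2-Aa, all 9 above 0, and none was called (0.671% of all probe sets were). At an unadjusted p under 0.05 limma gave 0 of 9 genes in both, beside 642 and 678 of all probe sets. The medians were -0.030 in males and 0.24 in females, beside -0.0051 and 0.0092 over all tested probe sets.

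The values behind this show where changes were bounded tightly and where not. H2-Aa had 17617.9, 14136.4 and 17148.1 at 13 weeks, against 16111.6, 16107.6 and 12802.0 in males of 3 weeks. It had 15429.6, 15946.4 and 18228.4 at 40 weeks, against 10778.3, 11878.2 and 14366.6 in females of 3 weeks. The female groups did not overlap, which also held for Cd74 and, with the later age higher, for 9.49% of tested probe sets. In males no gene's groups were apart, as were those of 7.57% of tested probe sets with 13 weeks higher. For H2-Aa the 95% interval was -0.43 to 0.67 in males and -0.12 to 0.98 in females.

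Cd74 had 18909.5, 15765.0 and 20619.6 at 13 weeks, against 18809.3, 20700.2 and 16090.2 in males of 3 weeks. It had 18190.8, 19011.6 and 22768.4 at 40 weeks, against 12675.8, 17192.5 and 17844.7 in females of 3 weeks. Its intervals were the narrowest, -0.45 to 0.43 in males and -0.10 to 0.78 in females. The interval of H2-Ab1 was wider, -1.14 to 0.89 in males and -0.69 to 1.33 in females, so a 2-fold change of H2-Ab1 in one or the other direction lies within it.

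H2-Oa spread most among the later arrays, with 175.1, 285.6 and 442.3 at 40 weeks, against 276.6, 217.8 and 246.7 in females of 3 weeks. At 13 weeks it had 270.8, 263.2 and 328.7, against 325.4, 307.5 and 359.7 in males of 3 weeks. Ciita had 309.5, 168.2 and 275.3 at 13 weeks, against 230.9, 165.4 and 313.6 in males of 3 weeks. It had 162.6, 236.4 and 216.2 at 40 weeks, against 165.5, 225.9 and 187.7 in females of 3 weeks. In each of these pairs the groups overlapped.

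The 40 minus 3 week change in females minus the 13 minus 3 week change in males was called for 0 of 9 genes and 0 of all probe sets (0%), and at an unadjusted p under 0.05 limma gave 0 of 9 and 214 of all. Age and sex cannot be told apart in that difference. Tnf, whose product the transgene encodes, had 5475.5 to 11342.8 in TNFTG hearts of 3 weeks, 7506.9 to 10841.7 at 13 weeks and 8773.5 to 12082.3 at 40 weeks, against 12.5 to 124.9 in FVB hearts. Neither of its age changes was called (-0.28 in males and 0.34 in females, SE 0.31 each, limma adjusted p = 0.921 and 0.838).

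Within the TNFTG groups the 9 genes did not vary as 1 block from array to array. Over 36 pairs, Pearson's r of deviations from the group means on 12 arrays had a median of 0.32, with 14 pairs above 0.5 and 6 below 0. H2-Aa and Cd74 varied together (r = 0.885). H2-Eb1, H2-DMa and H2-DMb1 formed another set (r = 0.763 to 0.782), which H2-Ab1 (r = 0.634 to 0.655) and H2-Oa (r = 0.591 to 0.704) accompanied. H2-Ob had r = 0.449 to 0.686 with H2-Eb1, H2-DMa and H2-DMb1. H2-Aa was near 0 with H2-DMa (r = 0.072) and below 0 with H2-Eb1 (r = -0.20). These values describe 12 arrays that share scaling and background, and are given without a test.

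**Figure D3:**
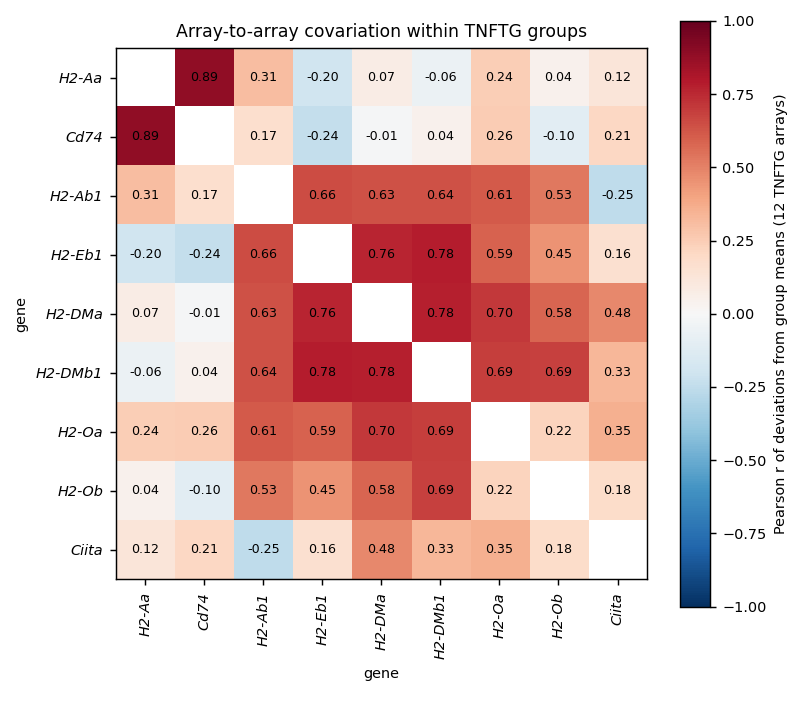
Pearson's r between pairs of the 9 genes over the 12 TNFTG arrays, computed on deviations of log2 signal from each group's mean, with genes on both axes and colour from -1 to 1. H2-Aa and Cd74 pair at 0.885, apart from the set of H2-Ab1, H2-Eb1, H2-DMa, H2-DMb1 and H2-Oa. Ciita has no r above 0.482.

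The genes whose pattern was most like the mean log2 signal of H2-Aa, H2-Ab1 and H2-Eb1 over the 12 TNFTG arrays were ranked by Pearson's r. First was Cd40, a costimulatory receptor of antigen presenting cells, with r = 0.953, and 0.903 on deviations from group means. Next came Igfbp7, a secreted IGF binding protein (0.926 and 0.891), Myh7, the beta myosin heavy chain (0.899 and 0.750), and Adcy4, an adenylyl cyclase (0.895 and 0.879). Serpina1b and Serpina1c, of the antitrypsin family (0.884 and 0.883, on probe sets that related genes may share), Flt4, a lymphatic endothelial receptor (0.884), and Ttc4 (0.860) completed the 8. With the highest of 7453 probe sets taken over 12 arrays, such values are a description only.

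Of these 8 genes 4 were called higher in TNFTG hearts of 3 weeks, 4 were not called and none was lower. Over all tested probe sets 46.6% were called and 24.7% were higher. The number called is near the 46.6% for either direction, while all 4 calls were higher. Cd40 had 161.4 to 226.5 on the TNFTG arrays of 3 weeks and 94.6 to 286.9 on the FVB arrays, and its log2 difference was 0.35 (SE 0.17, limma adjusted p = 0.0918), although it was called without the outlying FVB female array. Igfbp7 rose by 0.82 and Serpina1b by 2.71 (limma adjusted p = 0.00132 and 4.01e-08), as did Flt4 by 0.83 and Serpina1c by 1.97 (limma adjusted p = 0.00331 and 2e-05). Myh7 stood at 0.43, Adcy4 at -0.34 and Ttc4 at -0.20 (limma adjusted p = 0.242, 0.0758 and 0.503).

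Several regulators upstream of class II changed. Of 13 genes on the array in a list of class II transcription factors and the interferon gamma pathway, 11 were tested, 7 rose, 3 fell and 1 was not called, with a median log2 difference of 0.66. Over all tested probe sets 46.6% were called, 24.7% as higher and 21.9% as lower. Irf8, a transcription factor of myeloid cells, rose by 2.69 (SE 0.17), and Irf1, which helps switch on Ciita, by 1.58 (SE 0.21). The receptor gene Ifngr1 rose by 1.53 (SE 0.28), and the kinase genes Jak2 and Jak1 by 1.46 (SE 0.17) and 0.77 (SE 0.16). Rfxank, a subunit of the RFX complex on the X box, fell by 0.74 (SE 0.14), as did Ifngr2 by 0.55 (SE 0.20). The Y box subunits were split: Nfya rose by 0.61 and Nfyb by 0.66, and Nfyc fell by 0.42.

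Ifng, which encodes interferon gamma, was below the floor on all 12 TNFTG arrays, with signals of 1.4 to 20.1, and on 4 of the 5 FVB arrays, where the outlying female array had 52.6. A transcript made by few cells can lie under this limit.

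In the endosome, where class II meets peptide, 10 of 14 tested genes rose and none fell, with a median of 0.88. Among all tested probe sets 24.7% were higher and 21.9% lower. Ifi30, the thiol reductase that opens disulphide bonds of antigens, had 1981.2 to 3607.2 on the TNFTG arrays of 3 weeks and 86.2 to 282.9 on the FVB arrays, and rose by 4.12 (SE 0.21, limma adjusted p = 2.46e-10). Ctss, the protease that trims Cd74 in antigen presenting cells, rose by 3.96 (SE 0.17), and the cathepsins Ctsz and Ctsc by 3.31 (SE 0.16) and 2.75 (SE 0.30). The 4 genes that did not pass were Ctsd at -0.22, Ctsl at 0.22, Lamp2 at 0.18 and the inhibitor Cst3 at 0.09.

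Neither Ifi30 nor Ctss was called with age. Ifi30 stood at -0.54 (SE 0.28) in males of 13 weeks and -0.37 (SE 0.28) in females of 40 weeks, and Ctss at -0.31 (SE 0.23) and -0.24 (SE 0.23), each relative to TNFTG hearts of 3 weeks of that sex.

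Of 8 costimulation genes and class II ligands on the array 4 passed the filter. Cd4, the T cell coreceptor that binds class II, rose by 1.46 (SE 0.29) and the T cell receptor Cd28 by 0.65 (SE 0.18), while Cd40 and Lag3 were not called. These 2 calls among 4 genes are near the 46.6% called in either direction over all tested probe sets. Both were higher, as were 24.7% of all tested probe sets. Without the outlying FVB female array, which leaves 1 FVB female array, Cd40 and Lag3 were called too. The share of all probe sets called in that fit is not given here. Cd86, a ligand of Cd28, had 61.2 to 163.5 on the TNFTG arrays and 24.9 to 248.8 on the FVB arrays of 3 weeks, with the outlying array highest, and did not pass the filter. Neither did Cd80, Ctla4 and Cd40lg.

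Class I presentation, the neighbouring pathway, had 13 of 14 tested genes higher and 1 lower, with a median of 1.88, beside 2.51 for the 9 class II genes. The shares over all tested probe sets were 24.7% higher and 21.9% lower. The immunoproteasome subunit Psmb8 rose by 3.08, the class I heavy chain genes H2-D1 and H2-Q4 by 2.52 and 2.45, and Tapbp, which loads peptide onto class I, by 1.74. Related class I genes may share probe sets. Psmb9 (4.04), Psmb8 (3.08), Tap1 (2.52) and Tap2 (1.52) lie between H2-DMb1 and H2-Ob in the gene order of the RefSeq table. In TNFTG males of 13 weeks the class I median stood at -0.52 relative to 3 weeks, with Psmb8 at -1.01 (limma adjusted p = 0.0982) and none called, beside a class II median of -0.030. When only the 2 groups compared were fitted, 2 of the 14 were called lower, beside 23 of all 7453 probe sets. No test of the difference between the lists was run.

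**Figure D4:**
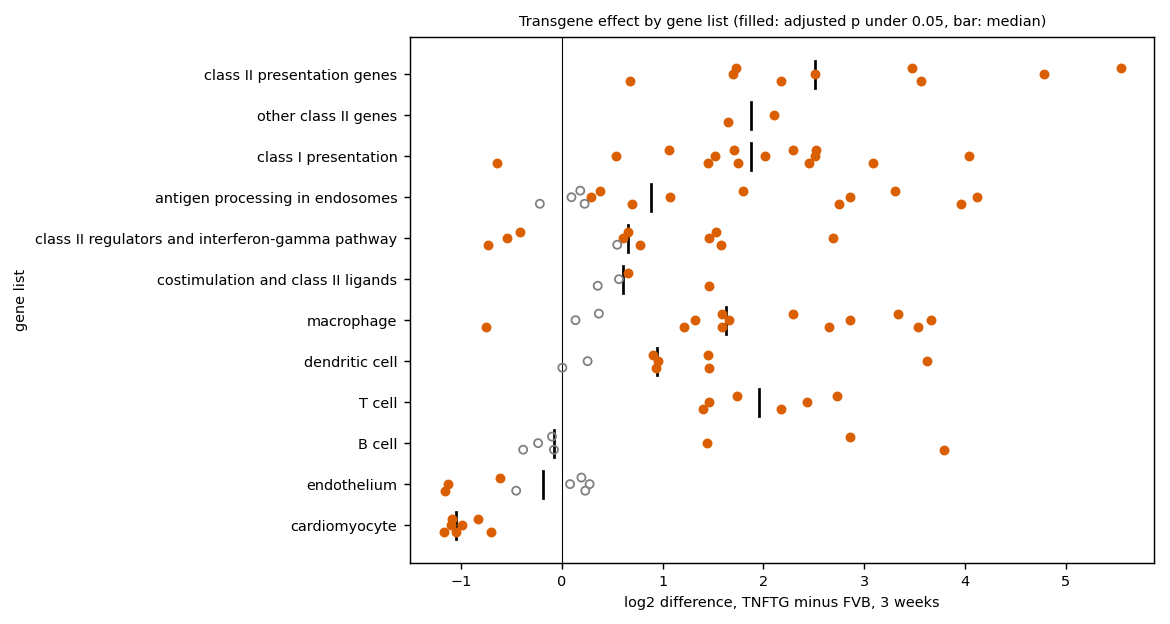
Log2 differences of TNFTG minus FVB hearts of 3 weeks for every tested gene of each list, with filled points for genes called at an adjusted p of 0.05, open points for the others and a bar at the list's median. The class II presentation genes run from 0.67 to 5.55, endosomal genes run from -0.22 for Ctsd to 4.12 for Ifi30, and cardiomyocyte genes lie below 0.

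Macrophage and most tested dendritic cell markers were higher beside class II, while most tested B cell markers were not called. Fewer cells of a type and less RNA per cell cannot be told apart in whole-heart RNA, and the same is true of a rise. Of 16 macrophage markers on the array 14 were tested, 11 rose, 1 fell and 2 were not called (median 1.63). These counts stand beside 24.7% of all tested probe sets higher and 21.9% lower. The summed signal of the macrophage markers was 35210 to 42020 on the TNFTG arrays of 3 weeks, 36070 to 49770 at 13 weeks and 37000 to 45260 at 40 weeks, against 7587 to 10060 on the FVB arrays. Itgam and Aif1 were below the floor in all 3 FVB males, and no marker was below the floor in every FVB heart. Lyz2, lysozyme, rose by 3.67, Aif1 by 3.53, Cd68 by 2.85 and Csf1r, the growth factor receptor of macrophages, by 2.30, while Fcgr1 fell by 0.76. The part of macrophage number in the class II rise was not tested.

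Dendritic cell markers had 6 of 8 tested genes higher and none lower (median 0.94), beside 24.7% of all tested probe sets higher and 21.9% lower. The summed signal over 9 genes was 6421 to 8248 on the TNFTG and 2409 to 4408 on the FVB arrays of 3 weeks. Itgax, an integrin shared with macrophages, had 1552.7 to 1968.9 in TNFTG and 99.9 to 179.5 in FVB hearts and rose by 3.63 (SE 0.15). Zbtb46, a factor of classical dendritic cells, rose by 1.45 (SE 0.26), the maturation marker Cd83 by 1.46 (SE 0.20), the transcription factor Batf3 by 0.95 (SE 0.16) and the chemokine receptor Xcr1 by 0.91 (SE 0.22), while Flt3 stood at 0.25 and was not called. Ccr7 did not pass the filter.

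B cell markers did not move as a group. Of 12 on the array 7 were tested, 3 rose and none fell, with a median of -0.08, while 46.6% of all tested probe sets were called and 24.7% were higher. Spib, Blnk and Cd79b, a transcription factor, an adaptor and a receptor subunit, rose by 3.79, 2.85 and 1.44. Ms4a1 (CD20) had 124.5 to 280.4 on the TNFTG and 178.3 to 292.1 on the FVB arrays of 3 weeks, and was not called (-0.08), nor were Pax5 (-0.10), Cd79a (-0.24) and Blk (-0.39). Cr2 was at the floor on all 11 arrays of 3 weeks, and Cd72 on the 5 FVB arrays. The summed signal over 12 genes was 2125 to 3289 in TNFTG and 743.9 to 2639 in FVB hearts, with the outlying array highest in FVB. Without FVB female 3, which leaves the outlying array as the sole FVB female, further B cell markers were called, some of them lower. The share of all probe sets called in that fit is not given here.

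Of 12 T cell markers on the array 6 passed the filter, and all 6 rose (median 1.95), beside 24.7% of all tested probe sets higher. The filter favours genes that are high in TNFTG hearts, here as in the other lists. In all 3 FVB males 6 of the 12 were at the floor. Those that rose include Zap70 by 2.73, Il7r by 2.43, Thy1 by 1.74 and Cd3g by 1.40. The summed signal over all 12 genes was 2104 to 4582 in TNFTG and 648.5 to 1422 in FVB hearts of 3 weeks. In the other direction, all 7 cardiomyocyte markers fell (median -1.05), beside 21.9% of all tested probe sets lower. The summed signal of these markers was 77690 to 153000 in TNFTG and 149400 to 243700 in FVB hearts. Among them the calcium channel gene Ryr2 (-1.17), the myoglobin gene Mb (-1.10) and the troponin genes Tnni3 (-1.09) and Tnnt2 (-1.05) had the smallest p. Of 8 endothelial markers 3 fell and none rose (median -0.19), beside 46.6% of all tested probe sets called and 21.9% lower. These were Flt1 (-1.13), Tek (-0.62) and Pecam1 (-1.16), while Tie1 stood at -0.46 and was not called. Without TNFTG male 3 limma called 5, 1 of them higher, and the share of all probe sets called in that fit is not given here. The part of these marker differences in the class II values was not tested.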

How the data were processed

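The deposited table holds a probe set intensity on a linear scale, with 1 decimal and none below 0, for 18 samples. How the authors scaled it is not stated in the labels, and each array's mean without its lowest and highest 2% was 499.2 to 499.9, so no further scaling was applied. Signals under the 25th percentile of the pooled values (44.675) were set to it and taken as log2. Values at this floor have no order. After 66 control probe sets were left out, the 60% of 12422 with the highest mean log2 signal, 7453, were tested in limma 3.58.1 (two-sided tests from lmFit and eBayes in R 4.3.3) with 6 group means over 17 arrays. That left 11 residual and 4.89 prior degrees of freedom. The effect at 3 weeks weights both sexes equally. Benjamini-Hochberg adjustment ran over the 7453. The fit was tested on simulated data. The number of arrays limits the precision.

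Symbols came from the platform annotation, which can be old: 10833 probe sets had 1 symbol (10821 of these are in the RefSeq table), 396 had several and 1193 had none. For a gene with several probe sets, that of highest mean stands for it. The 9 genes and the lists were chosen with earlier results of these data known. Named genes are the 9 members, a few looked-up genes (Ifng, Irf1, Ctss, Ifi30 and Tnf), up to 4 with the smallest p per list in the effect at 3 weeks, and the 8 most alike in pattern. The same rule for the age changes, where no list gene was called, is given only by examples. Other genes named from a list, such as those not called, were chosen after their values were seen. Same-numbered samples were not taken as pairs, since their deviations from group means correlated at -0.189 to 0.241.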

Additional observations from a re-analysis of the deposited data

Results flagged for a closer look

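One value among the 9 genes lay far from its group by Dixon's test, out of 18 groups of values tested (each gene in the 6 TNFTG and the 5 FVB arrays of 3 weeks). H2-DMb1 had 2214.6 on TNFTG male 3, while the other 5 TNFTG arrays of 3 weeks had 967.6 to 1396.7. The gap to the nearest array was 0.656 of the range. Chance gives about 1 such value in 20 groups. The same array was also highest of the 6 for H2-DMa, H2-Eb1, H2-Oa, H2-Ob and Ciita, but not for H2-Aa, H2-Ab1 or Cd74. Without it the call of Ciita in males was lost (0.74, limma adjusted p = 0.0907).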

How the results depend on the processing

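The count of called class II genes kept within 1.5 times its value under all 13 alternatives other than leaving out an array. For the effect at 3 weeks it was 6 to 9 against 9, for females 6 to 8 against 8, and for males 6 to 9 against 9. The lowest counts came with the brightest 40% of probe sets, where only 6 of the 9 genes were tested, and in females also with array weights. Both age changes, the difference between them, the sex difference of the effect and the sex difference in TNFTG hearts gave 0 under these alternatives. Leaving out each of 17 arrays gave 8 to 9 for the effect at 3 weeks, 5 to 8 in females, 8 to 9 in males, 0 to 2 for the sex difference of the effect and 0 for the other 4. The 5 and the 2 came without FVB female 3, with the outlying array as the sole FVB female. The share of all probe sets called in that fit is not given here. The replicate block, with the replicate number as a term, gave 9, 8 and 9 and changed no call of the 9 genes. No called difference changed sign. Ciita was also lost for the effect at 3 weeks with array weights (0.70, limma adjusted p = 0.0705), and in males with quantile normalisation (0.75, limma adjusted p = 0.0848), and H2-DMa in females with the mean of its probe sets (1.05, limma adjusted p = 0.106). H2-Ob in females fell to 0.35 (limma adjusted p = 0.223) with the floor at the 40th percentile, which lifts more FVB values to the floor. A common median moved the median of all probe sets by sex, to 0.18 in females and -0.18 in males. Low FVB signals near the floor limit the size of the differences of H2-Ob, H2-Oa, H2-Eb1 and H2-Ab1, and values set to the floor lose their scatter. Over all probe sets, the calls in females were 2587, against 699 with array weights, 1013 with only the groups compared and 1361 without the 3 doubted FVB arrays. Those for females of 40 weeks were 50, against 803 with array weights and 77 with no filter, and those for males of 13 weeks 39, against 80 with array weights and 61 without the doubted arrays. The sex difference of the effect had 0 calls, against 6 with quantile normalisation, 17 with a common median and 91 with no filter, the difference between the age changes 0, against 1 with array weights, and the sex difference in TNFTG hearts 6, against 2 with quantile normalisation or no filter, 3 with only the groups compared and 23 with array weights. The causes were not tested.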
